A study of Mus musculus with 4 samples.

Results

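Wnt ligands are secreted, lipid-modified glycoproteins that bind Frizzled receptors together with Lrp5 or Lrp6 and stabilise β-catenin, or act through Ror and Frizzled receptors without it. R-spondins are secreted proteins that bind Lgr receptors and remove the ubiquitin ligases Znrf3 and Rnf43 from the cell surface, which leaves more Frizzled receptor there for Wnt ligands to bind. In the vessel wall, Wnt signalling is known for roles in smooth muscle proliferation, migration and calcification. The genes described here are 7 Wnt ligand genes (Wnt2, Wnt2b, Wnt4, Wnt5a, Wnt9a, Wnt11 and Wnt16) and 3 R-spondin genes (Rspo1, Rspo2 and Rspo3). They were taken by gene name from the deposited table, in which all 10 were found among 39179 genes.

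The table holds RNA-seq of primary aortic smooth muscle cells of the mouse. There were 2 libraries from Sm-Yap/Taz-KO mice, in which the transcriptional co-activators YAP (gene Yap1) and TAZ (gene Wwtr1) were deleted in smooth muscle (KO), and 2 from wild-type mice (WT). All 4 were prepared 18 days after tamoxifen, the drug used to switch on inducible Cre recombinases, so the WT mice had received it too. The labels used here name neither the promoter behind the deletion nor the age of the mice. They do not say that replicates are separate animals either, so the p-values reflect the spread of these libraries alone, and that spread may be technical.

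Values are the authors' normalized read counts, that is, read counts per gene scaled between libraries and rounded. The spacing of the rounded values put the depth at about 12300000 and 11800000 reads on genes in KO and 15600000 and 16800000 in WT. Yap1 stood at 947 and 962 normalized counts in KO and at 1966 and 1877 in WT and fell, and Wwtr1, at 2848 and 2466 in KO and at 3423 and 4016 in WT, did not pass the test. Reads from outside a deleted stretch count in both. Smooth muscle markers were abundant in all 4 libraries, with summed normalized counts of 164362 and 127845 in KO and 455476 and 428397 in WT, and 9 of 10 fell. Markers of other cells were present too. The sums of 11 fibroblast markers were 78055 and 66852 in KO and 22780 and 44615 in WT, and those of 8 adipocyte markers 11712 and 10770 in KO and 1364 and 4041 in WT. For 12 macrophage markers the sums were 12645 and 16076 in KO and 1266 and 3449 in WT, and for 10 endothelial markers 12775 and 11031 in KO and 4695 and 7084 in WT. Of these lists, 2 of 11 fibroblast, 6 of 8 adipocyte, 12 of 12 macrophage and 5 of 10 endothelial markers rose and none fell. By the same test, described below with the members, 9.58% of all 15058 tested genes rose and 6.7% fell. The 7 mesothelial markers, all below the filter, together summed to 1 and 21 in KO and 1 and 8 in WT. Of these, Upk1b and Muc16 were at 0 in all 4 libraries. Of 5 tested Schwann cell markers 1 rose, and 6 lymphocyte markers, all below the filter, summed to 27 and 46 in KO and 9 and 10 in WT. The other-cell markers were lower in WT replicate 1 than in WT replicate 2. In bulk RNA, fewer cells of a type and less RNA per cell cannot be told apart.

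The 7 Wnt genes encode a shared segment around the serine to which the acyltransferase Porcn attaches the lipid that Frizzled receptors grip. The 30 coding bases around it, from the GENCODE M21 transcripts (GRCm38), show what the members have in common and where they part, and the serine codon is in capitals.
Wnt2: aagtgtcatggtgtgAGTggctcctgtact
Wnt2b: aagtgtcacggtgtgAGTggctcctgtact
Wnt4: aagtgtcacggggtgTCGggctcctgcgag
Wnt5a: aagtgtcatggagtgTCTggctcctgtagc
Wnt9a: aaatgccatggtgtgTCTggctcctgcacc
Wnt11: aaatgccatggggtgTCTggctcctgctcc
Wnt16: cgctgccacggagttTCCggctcctgtgct
Of the 30 positions, 16 carry the same base in all 7 genes. Wnt2 and Wnt2b were the closest pair, with 29 identical bases, and Wnt9a and Wnt11 followed with 28. Wnt16 stood apart, sharing 19 or 20 bases with each of the others. The serine is codon 212 in Wnt2, 241 in Wnt2b, 212 in Wnt4, 244 in Wnt5a, 221 in Wnt9a, 215 in Wnt11 and 226 in Wnt16.

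Rspo3 was the only member that passed the test, and it rose in KO. Values were tested with limma on log2(normalized count + 1) over the 15058 genes with a mean of at least 10, at an adjusted p of 0.05 (Benjamini-Hochberg), and all 10 members passed that filter on low values. Rspo1, with a mean of 9.5 in WT, and Wnt4, with a mean of 6 in KO, passed it only through the group where they were higher. Both are in the counts and the median below. At this threshold 1 of the 10 members was higher and 0 were lower, while 9.58% of all tested genes were higher and 6.7% were lower, so the share of members called was close to the background. At an unadjusted p under 0.05 the count was 4 of 10 members (Wnt2, Wnt5a, Wnt11 and Rspo3), against 32.5% of all tested genes. KO and WT values were fully apart for 7 of the 10 members, against 62.8% of all tested genes. For 6 of them both KO values lay above both WT values, as they did for 30.7% of all tested genes, and for 1 (Wnt4) both lay below, as for 32.1%. The median log2 fold change of the members was 0.74, and that of all tested genes was -0.02, with quartiles of -0.33 and 0.40. The members' median was 0.39 without WT replicate 1 and 1.08 without WT replicate 2.

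**Figure D1:**
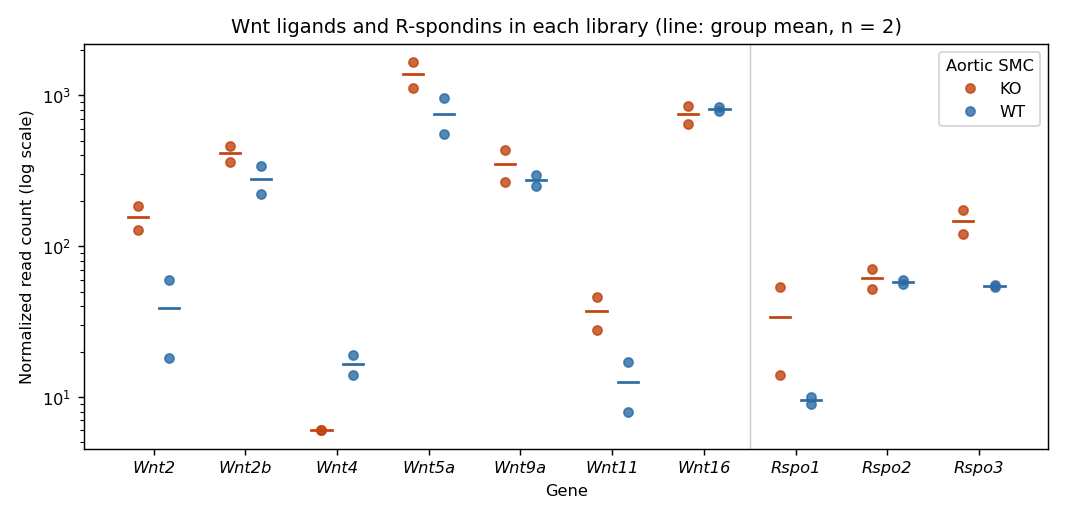
Normalized read counts (log scale) of the 7 Wnt and 3 R-spondin genes. Each point is 1 library, KO to the left of WT, and lines are group means (n = 2 each). The groups are apart for Wnt2, Wnt2b, Wnt4, Wnt5a, Wnt11, Rspo1 and Rspo3 and overlap for Wnt9a, Wnt16 and Rspo2.

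Rspo3 encodes an R-spondin that is needed in the mouse embryo for vessels of the placenta to form. The gene lies on chromosome 10 (29452416 to 29535867, minus strand, GRCm38). It had 120 and 173 normalized counts in the KO libraries and 55 and 54 in the WT libraries. The WT libraries were nearly equal, and both KO libraries lay above them. The mean was 146 ± 37.5 in KO and 54.5 ± 0.71 in WT (SD, n = 2 each), a 2.69-fold difference of the means. The log2 fold change was 1.39 (SE 0.28, 95% interval 0.70 to 2.07, limma adjusted p = 0.026). Leaving out any 1 of the 4 libraries gave log2 fold changes between 1.12 and 1.65, but each such refit lost the call, with limma adjusted p-values from 0.128 to 0.214. It was also lost without the filter on low counts (limma adjusted p = 0.107), with a filter at a mean of 1 (0.0785) and without the intensity trend (0.08). An antisense gene, Gm48159, overlaps 13.1% of the exon length of Rspo3, and with the strand setting of the counting unknown its reads cannot be told apart. The macrophage, fibroblast, adipocyte and endothelial marker sums given above were higher in both KO libraries too. Within WT, the macrophage sums were 1266 and 3449, where Rspo3 had 55 and 54. The part of other cells in the result was not tested.

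Rspo1, which in the mouse acts in ovary development (chromosome 4, 124986430 to 125009099, plus strand), was scarce. It had 14 and 54 normalized counts in KO and 10 and 9 in WT. KO replicate 2 stood alone: the other 3 libraries lay within 5 counts of each other. Its log2 fold change was 1.45 (SE 0.73, 95% interval -0.34 to 3.25, limma adjusted p = 0.23) and did not pass. It was 0.52 without KO replicate 2 and 2.39 without KO replicate 1. Rspo2, needed for limb and lung development in the mouse (chromosome 15, 43020794 to 43170826, minus strand), had 71 and 52 normalized counts in KO and 56 and 60 in WT. The WT values lay between the KO values. Its log2 fold change was 0.07 (SE 0.31, limma adjusted p = 0.91), with a 95% interval of -0.69 to 0.82 that still allows a change of over 1.5-fold either way. Whether Rspo3 differed from Rspo2 in its response was not tested. Rspo4, the remaining family member, was listed at 0 in all 4 libraries.

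The Wnt gene with the largest difference was Wnt2, which encodes a ligand of the β-catenin branch (chromosome 6, 17988940 to 18030585, minus strand). It had 186 and 128 normalized counts in KO and 18 and 60 in WT. Both KO libraries lay above both WT libraries, and the WT libraries differed over 3-fold from each other. The means were 157 ± 41.0 in KO and 39 ± 29.7 in WT (SD, n = 2 each), a ratio of 4.03. The log2 fold change of 2.19 (SE 0.57, 95% interval 0.79 to 3.59) was just short of the threshold (limma adjusted p = 0.052). The gene passed in 5 of 13 alternatives: with a pseudocount of 5 (limma adjusted p = 0.0462), at the same total (0.0385), after quantile normalization (0.0442), with replicate number as a term (0.0374) and without WT replicate 2 (0.0488). WT replicate 1 set much of the size: without it the log2 fold change was 1.35, and without WT replicate 2 it was 3.03.

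Wnt5a, Wnt11, Wnt2b and Wnt10b had higher values in both KO libraries but did not pass. Wnt5a, which acts mainly through Ror2 and without β-catenin (chromosome 14, 28504750 to 28527448, plus strand), had 1655 and 1118 normalized counts in KO and 558 and 955 in WT. The means were 1386 ± 380 in KO and 756 ± 281 in WT (SD, n = 2 each). The gap between the nearest KO and WT libraries was smaller than the gap within either group. Its log2 fold change was 0.90 (SE 0.30, 95% interval 0.17 to 1.62, limma adjusted p = 0.094), and 0.51 without WT replicate 1. Wnt11, a ligand of cell movement in the embryo (chromosome 7, 98835112 to 98855195, plus strand), had 46 and 28 in KO and 8 and 17 in WT, which gave a log2 difference of 1.54 (SE 0.57, limma adjusted p = 0.12). A processed pseudogene on the opposite strand overlaps 8.8% of its exon length and was listed at 0 in all 4 libraries. Wnt2b, the paralog of Wnt2 (chromosome 3, 104945272 to 104961921, minus strand), had 465 and 362 normalized counts in KO and 222 and 339 in WT. KO replicate 2 and WT replicate 2 were thus close to each other. The log2 fold change of Wnt2b was 0.58 (SE 0.25, limma adjusted p = 0.17), and 0.27 without WT replicate 1. Wnt10b, a further family member, had 56 and 27 in KO and 14 and 26 in WT (log2 fold change 0.99, SE 0.55, limma adjusted p = 0.27).

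Wnt4 was the member whose KO values both lay below WT. It encodes a ligand needed for kidney and ovary development in the mouse (chromosome 4, 137277489 to 137299726, plus strand). It had 6 and 6 normalized counts in KO, which stand for 5 reads in each library, and 19 and 14 in WT. The groups did not overlap, yet at so few reads the difference did not pass, with a log2 fold change of -1.31 (SE 0.62, 95% interval -2.82 to 0.21, limma adjusted p = 0.21).

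The groups overlapped for Wnt16 and Wnt9a. Wnt16, known for its part in cortical bone thickness (chromosome 6, 22288227 to 22298522, plus strand), had 855 and 649 normalized counts in KO and 785 and 836 in WT. Both WT values lay between the KO values. The log2 fold change was -0.12 (SE 0.16, limma adjusted p = 0.65), with a 95% interval of -0.51 to 0.27. This was the narrowest interval among the members, and it holds no change of 1.5-fold or more in either direction. Wnt9a, which acts in joint formation (chromosome 11, 59306928 to 59333552, plus strand), had 432 and 268 in KO and 250 and 298 in WT, and KO replicate 1 stood above the other 3 libraries. Its log2 fold change was 0.32 (SE 0.26, limma adjusted p = 0.44), and -0.03 without KO replicate 1.

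**Figure D2:**
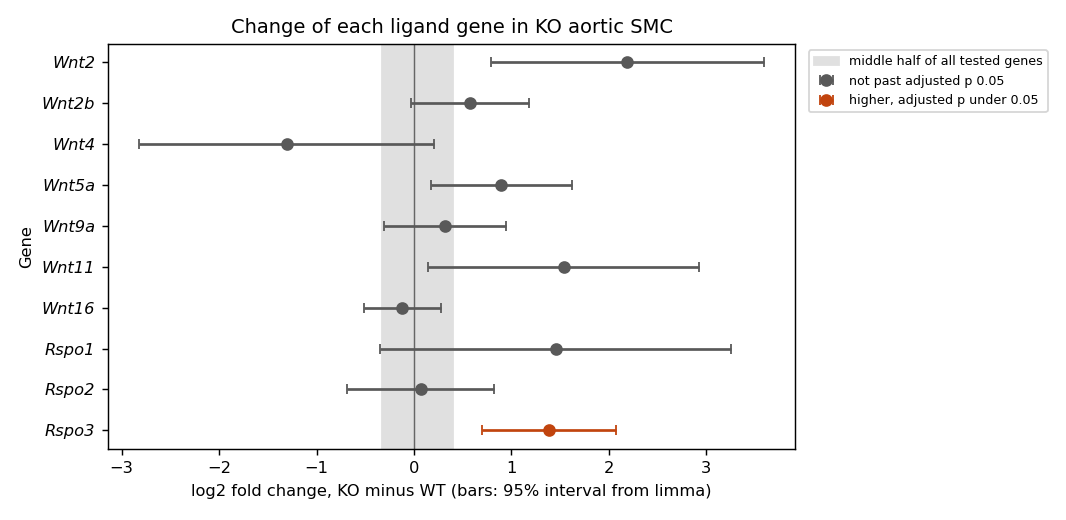
Log2 fold change of each member, KO minus WT, with limma's 95% interval. The grey band spans the quartiles of all 15058 tested genes (-0.33 to 0.40). Rspo3, at 1.39, was the gene past the adjusted threshold, and the intervals of Wnt2, Wnt5a and Wnt11 also lie above 0.

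Per kilobase of exon, Wnt5a and Wnt16 had the highest group means of the members. In KO, Wnt5a had a mean level of 177 ± 48.5 and Wnt16 of 172 ± 33.4 normalized counts per kb (SD, n = 2), which do not differ beyond their spread. In WT, Wnt16 led with 186 ± 8.27 and Wnt5a followed with 96.7 ± 35.9. The WT libraries did not overlap between these genes, with Wnt16 at 180 and 192 per kb and Wnt5a at 71.3 and 122. Wnt9a (105 ± 34.8 in KO, 82.3 ± 10.2 in WT) and Wnt2b (98.4 ± 17.3 in KO, 66.8 ± 19.7 in WT) came next and overlapped in each group. In WT, Wnt5a also overlapped Wnt9a (75.1 and 89.5 per kb) and Wnt2b (52.8 and 80.7). Wnt2 had 69.6 ± 18.2 per kb in KO and 17.3 ± 13.2 in WT, and Rspo3 had 47.4 ± 12.1 in KO and 17.6 ± 0.23 in WT. Wnt2 and Rspo3 thus had like means in WT, where both were far under Wnt16. The WT libraries of Wnt2 were apart, at 7.98 and 26.6 per kb, and those of Rspo3 were close, at 17.8 and 17.5. Rspo1, Rspo2, Wnt11 and Wnt4 stayed at means from 1.43 to 17.5 per kb in KO and from 3.02 to 11.3 in WT. With the longest transcript in place of all exons, Wnt16 led in KO too, at 229 per kb against 198 for Wnt5a.

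**Figure D3:**
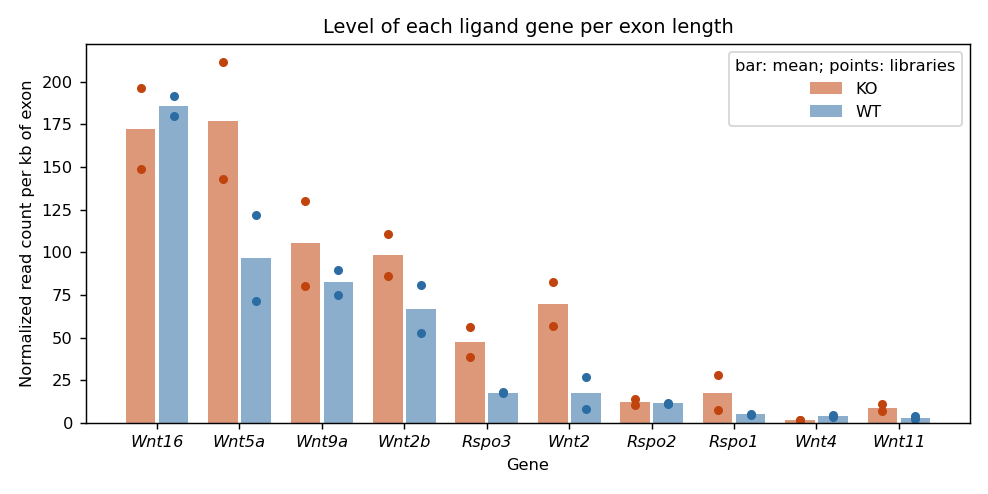
Normalized read count per kb of exon for each member, ordered by the WT mean. Bars are group means, KO left of WT, and points are the 2 libraries of each group. Wnt16 and Wnt5a have the highest means in both groups, and Wnt4 and Wnt11 are lowest in WT at under 5 per kb.

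Within the Wnt pool, the shares of 5 of the 7 genes (all but Wnt2b and Wnt9a) did not overlap between KO and WT. The normalized counts of 62.8% of all tested genes did not either, but that is an unlike measure. Shares of the same pool depend on each other, and those of Wnt16 were apart although its counts overlapped. Wnt5a made up 45.4% and 43.7% of the summed normalized counts of the 7 Wnt genes in KO and 30% and 37.9% in WT. Wnt16 made up 23.5% and 25.4% in KO and 42.2% and 33.2% in WT, and Wnt2 5.1% and 5.0% in KO and 0.97% and 2.38% in WT. The 2 KO libraries were nearly alike in these shares, although their summed counts of 3645 and 2559 differed, against 1860 and 2519 in WT. Wnt11 made up 1.26% and 1.09% in KO and 0.43% and 0.67% in WT, and Wnt4 0.16% and 0.23% in KO and 1.02% and 0.56% in WT. The shares were not tested.

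Of the whole families, 9 of 19 Wnt genes and 3 of 4 R-spondin genes passed the filter on low values, and of these only Rspo3 rose and none fell. The remaining tested gene, Wnt5b, had 35 and 33 normalized counts in KO and 18 and 35 in WT. Wnt3a and Wnt7b, like Rspo4, were at 0 in all 4 libraries. The other 8 Wnt genes below the filter reached at most 10 normalized counts in a library and were not tested. Among them Wnt8b had 3 and 0 in KO and 7 and 10 in WT.

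**Figure D4:**
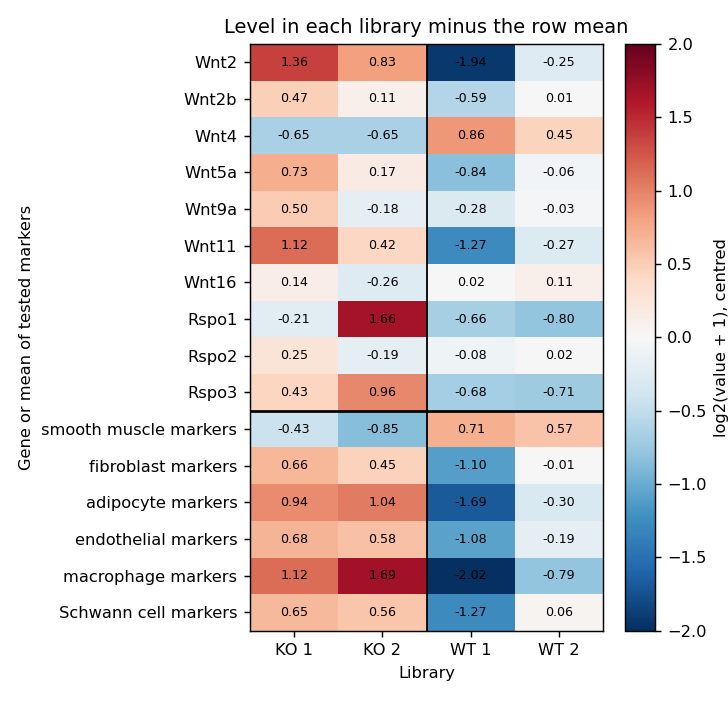
Log2(value + 1) of each member, and mean over the tested markers of 6 cell types, in each library minus the mean of its row. Wnt2, Wnt5a, Wnt11, Wnt2b and Wnt9a, and the markers of all 5 types other than smooth muscle, have their lowest level in WT replicate 1. Rspo1 and Rspo3, and the macrophage and adipocyte markers, have their highest level in KO replicate 2.

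The library profiles of the members fell into a few shapes. Wnt2, Wnt2b, Wnt5a and Wnt11 had their highest level in KO replicate 1 and their lowest in WT replicate 1. So did Wnt9a, although its groups overlapped. On the log2(value + 1) scale, Wnt2 lay at 1.36 and 0.83 relative to its mean in KO and at -1.94 and -0.25 in WT. The means of the fibroblast markers (0.66 and 0.45 in KO, -1.10 and -0.01 in WT), the endothelial markers (0.68 and 0.58 in KO, -1.08 and -0.19 in WT) and the Schwann cell markers (0.65 and 0.56 in KO, -1.27 and 0.06 in WT) had the same order. Rspo3 was at 0.43 and 0.96 in KO and -0.68 and -0.71 in WT, and the macrophage marker mean at 1.12 and 1.69 in KO and -2.02 and -0.79 in WT. The part of the mix of cells in these profiles was not tested. By the distance between centred profiles over the 4 libraries, the tested genes most like Wnt2 were Cd226 (distance 0.16 in log2 units), Plin1 (0.21) and Slc7a10 (0.22). Those most like Wnt5a were Htra3 (0.09), Dnm1 (0.11) and Ntrk2 (0.12), and those most like Wnt2b were Lama2 (0.05), Pde4d and Entpd5 (0.06 each). Rspo3 was closest to Tacc3, Ncapd2 and Usp18, and Rspo1 to Cd72, Syt12 and Sema4d. With 4 libraries such likeness is a description of these samples.

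Of 7 tested genes that serve the processing and secretion of Wnt proteins, 1 rose and none fell, where 9.58% of all tested genes rose. Porcn had 39 and 51 normalized counts in KO and 59 and 48 in WT (log2 fold change -0.25, SE 0.33). Wls, the carrier that takes Wnt proteins to the cell surface, had 2538 and 2153 in KO and 2571 and 2959 in WT (-0.24, SE 0.13). The riser was Tmed5, a cargo receptor of the early secretory pathway, with 1486 and 1312 in KO and 479 and 646 in WT (log2 fold change 1.33, SE 0.17, limma adjusted p = 0.011).

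The list held 5 R-spondin receptor and ubiquitin ligase genes, of which 3 passed the filter on low values. These 3 (Lgr4, Lgr6 and Znrf3) fell, at a median of -0.67 on the log2 scale, where 6.7% of all tested genes fell. Lgr6 had 3024 and 3020 normalized counts in KO and 4922 and 4468 in WT (log2 fold change -0.63, SE 0.10, limma adjusted p = 0.016). Lgr4 had 629 and 555 in KO and 1066 and 1049 in WT (-0.84, SE 0.12, limma adjusted p = 0.013). Znrf3, which encodes a ligase that R-spondins remove, had 483 and 456 in KO and 793 and 704 in WT (-0.67, SE 0.13, limma adjusted p = 0.024). The KO and WT libraries were apart for all 3, and the replicates of each group were close. The receptor gene Lgr5 (6 and 13 in KO, 2 and 3 in WT) and the ligase gene Rnf43 (7 and 8 in KO, 2 and 2 in WT) were below the filter and not tested, and their values pointed the other way, with both KO libraries above both WT libraries. Leaving out any 1 library ended all 3 calls, while the median stayed between -0.76 and -0.58 over all alternatives. The smooth muscle markers were lower in the same libraries (9 of 10, median -1.10), and their part in these falls was not tested.

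Among 14 tested Wnt receptors and co-receptors, 3 fell and 2 rose, where 6.7% of all tested genes fell and 9.58% rose. Fzd8 fell most, with 228 and 219 normalized counts in KO and 1084 and 827 in WT (log2 fold change -2.08, SE 0.17, limma adjusted p = 0.0056). Fzd5 (-0.95, SE 0.17) and Fzd2 (-1.15, SE 0.24) fell as well, and Fzd4 (0.70, SE 0.16) rose. The other riser was Ror2, the receptor tyrosine kinase that binds Wnt5a, with 92 and 94 normalized counts in KO and 21 and 38 in WT (log2 fold change 1.68, SE 0.38, limma adjusted p = 0.036). The co-receptors Lrp5 (-0.30, SE 0.10) and Lrp6 (0.12, SE 0.15) did not pass. Of 9 tested heparan sulfate proteoglycans, which hold Wnt and R-spondin proteins at the cell surface, Gpc4 (-0.77, SE 0.10) and Gpc6 (-0.75, SE 0.09) fell and Sdc3 (2.03, SE 0.24) rose. How far the mix of cells entered these rises and falls was not tested.

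Secreted antagonists, which bind Wnt proteins or block their co-receptors, had 3 risers and no faller among 10 tested genes (median log2 fold change 1.13), where 9.58% of all tested genes rose and 6.7% fell. There was 1 faller after quantile normalization, and there were 4 risers and 1 faller with replicate number as a term. Sfrp1 had 1731 and 2620 normalized counts in KO and 296 and 767 in WT (log2 fold change 2.16, SE 0.45, limma adjusted p = 0.028). Sfrp4 had 8607 and 6894 in KO and 864 and 1823 in WT, and Frzb 581 and 788 in KO and 197 and 225 in WT, and both rose. Lower values that did not pass were seen for Sost (2326 and 4683 in KO, 7003 and 7650 in WT) and Wif1 (142 and 137 in KO, 207 and 278 in WT). The median ran from 0.24 to 1.62 over the alternatives. The median of 1.13 includes Sostdc1, which did not pass the test. With means of 9.5 in WT and 21.5 in KO, Sostdc1 passed the filter on low values only through KO. The list's mean log2 level was 9.299 and 9.563 in KO and 8.007 and 9.004 in WT. It was lowest in WT replicate 1, as were the fibroblast, adipocyte and macrophage markers, and the part of those cells was not tested.

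Downstream, the genes of the β-catenin branch did not move as 1 group. Of 14 tested transducers, 2 fell (Bcl9, -0.75, SE 0.14, and Tcf7l1, -0.49, SE 0.12) and none rose, where 6.7% of all tested genes fell and 9.58% rose. Ctnnb1, which encodes β-catenin itself, had 5817 and 5625 normalized counts in KO and 7243 and 7082 in WT (-0.32, SE 0.10, limma adjusted p = 0.071). At the same total, 1 transducer fell. Of 13 tested targets and feedback genes, 4 rose (Ccnd1, Cd44, Wisp1 and Wisp2) and 2 fell (Nkd1 and Znrf3), against 9.58% and 6.7% of all tested genes. The part of the mix of cells in these changes was not tested. Axin2, a feedback gene of the branch, had 147 and 153 in KO and 160 and 125 in WT (0.08, SE 0.22), and its sign turned after quantile normalization (-0.06). In the branches without β-catenin, 1 of 15 genes rose, Nfatc1 (0.62, SE 0.11), and none fell, against 9.58% and 6.7% of all tested genes. After quantile normalization 2 rose, and with replicate number as a term 1 fell. Without any 1 library other than WT replicate 2, limma called 0 genes in each of these lists.

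**Figure D5:**
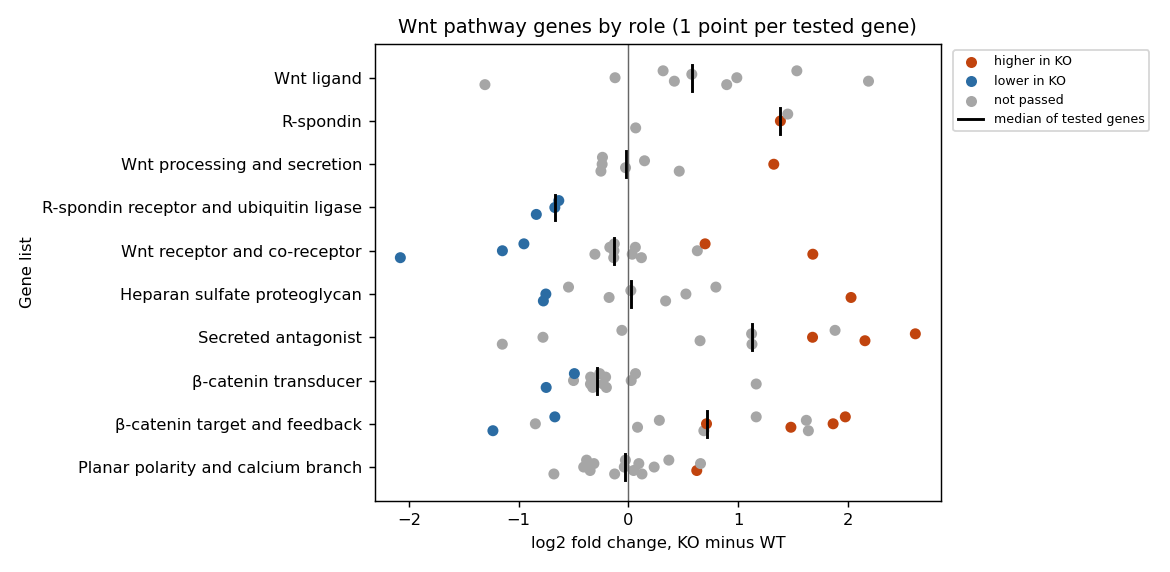
Log2 fold change, KO minus WT, of the tested genes of 10 lists, with the median of each list as a black line. The 3 tested R-spondin receptor and ubiquitin ligase genes lie between -0.84 and -0.63. The medians of the 3 R-spondins (1.39, the value of Rspo3) and the secreted antagonists (1.13) lie above 0. In these lists, Rspo1 and Sostdc1 passed the filter on low values only through KO.

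Promoters were examined for the binding letters of the factors involved, since YAP and TAZ act through TEAD proteins and β-catenin through TCF/LEF proteins. RefSeq promoters (GRCm38.p6, 250 bases before to 50 after a gene's start) were matched for 7 of the 10 members, with 8 promoters in all. None was matched for Rspo3, the member that passed the test, or for Rspo2 and Wnt5a, so these genes were not searched. The TEAD letters GGAATG, searched on both strands, were in 0 of these 8 promoters and in 14.7% of all 32851 promoters. The TCF/LEF letters CTTTGAT, also on both strands, were in 1 of the 8 and in 3.73% of all. The match was in the upstream promoter of Wnt11 (chr7:98834862-98835161, plus strand), which is shown with the match in capitals on the reverse strand, beside the promoter of Wnt2 (chr6:18030396-18030695, minus strand), the Wnt gene with the largest difference, which has no match to either motif.
Wnt11: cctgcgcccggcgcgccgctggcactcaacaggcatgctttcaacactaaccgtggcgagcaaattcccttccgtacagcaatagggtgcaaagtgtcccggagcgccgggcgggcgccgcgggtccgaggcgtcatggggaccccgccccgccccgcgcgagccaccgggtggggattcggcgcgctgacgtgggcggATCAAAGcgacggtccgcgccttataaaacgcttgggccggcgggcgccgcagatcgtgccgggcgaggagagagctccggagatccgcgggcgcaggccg
Wnt2: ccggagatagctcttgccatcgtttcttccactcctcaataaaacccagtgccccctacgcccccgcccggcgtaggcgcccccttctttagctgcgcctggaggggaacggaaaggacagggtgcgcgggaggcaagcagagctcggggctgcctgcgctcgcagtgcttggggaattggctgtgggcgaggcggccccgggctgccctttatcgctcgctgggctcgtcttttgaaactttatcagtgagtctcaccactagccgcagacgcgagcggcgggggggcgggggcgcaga
A match is a description of these letters and not a site, and its absence says only that they are not in this window.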

How the data were processed

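Per the labels' protocols, ribosomal RNA was removed from total RNA before library preparation with a strand-keeping kit. The submitters' processing notes name STAR 2.5.2b, featureCounts 1.5.1 and DESeq2 1.14.1, besides FastQC and Subread, and the build mm10/GRCm38, with no roles. The gene annotation, the strand setting and any filter are not stated there. The unit of the deposited values was set as a score: they are read counts per gene that the authors scaled between libraries and rounded. The KO columns skip 45 and 44 of the whole numbers from 1 to 400, as division by a factor below 1 gives. The factors estimated from these steps were 0.887 and 0.889 in KO and 1.10 and 1.16 in WT. They are approximate: at 0.887, no whole number of reads gives the 465 of Wnt2b in KO replicate 1. Since the deposited values are not raw counts, no count model was used.

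Values were analysed in R 4.3.3 with limma 3.58.1 on log2(value + 1), for genes with a mean of at least 10, with group as the term and an intensity trend in eBayes (2 residual and 3.96 prior degrees of freedom). Tests were two-sided, and p-values were adjusted by Benjamini-Hochberg over 15058 genes. Fold changes on this scale understate the change of low genes. Exon lengths and overlaps come from GENCODE M21. The members, the 10 pathway lists and the 8 marker lists were chosen with earlier results of these data known. Named are all members, other family genes with a mean of at least 10, up to 4 genes with the smallest p of each list, some core pathway genes, and the 3 nearest profiles. Some are left out for length. Alternatives changed the pseudocount, filter, trend, scaling, replicate term and libraries.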

Additional observations from a re-analysis of the deposited data

How the results depend on the processing

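All comparisons rest on 2 libraries per group. Over all genes, limma called 2452, against 0 with no filter (5472 at an unadjusted p under 0.05), 35 with a filter at a mean of 1, 0 without the intensity trend (4274), and 0 to 740 with 1 library left out. At the same total, 1836 genes were higher and 855 lower, against 1443 and 1009 in the test used. Of the members, 1 was called. The count was 2 with a pseudocount of 5, at the same total, after quantile normalization and with the replicate block. It was 0 with no filter (3 at an unadjusted p under 0.05), with a filter at a mean of 1 (4) and without the trend (4), and 0 to 1 with 1 library left out. Refits were followed for a list of 45 genes, 23 of them past the threshold. Those 23 kept their sign in all 299 refits and their call in 146. Ror2 and Wisp2, which also passed, were not on that list. Some genes that did not pass, such as Wnt10b and Wnt5b, were not on it either. Among the 45, signs turned for 4 genes, none of them called. These were Rspo2 after quantile normalization (-0.22) and with 1 library left out (-0.15 to 0.29), Axin2 after quantile normalization (-0.060) and with 1 library left out (-0.093 to 0.26), Wnt9a with 1 library left out (-0.026 to 0.66) and Wnt16 likewise (-0.32 to 0.078). The causes were not tested. Replicate numbers are not said to mark a shared batch. Same-numbered samples deviated together with a correlation of 0.118 over genes, and the replicate block gave 3036 called genes.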
